A study of Homo sapiens with 4 samples.

Results

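The vesicle transport genes of the endoplasmic reticulum (ER) and the Golgi apparatus were examined in A549 and H441, which are established human lung adenocarcinoma cell lines, after transfection with an siRNA named for TAZ (siTAZ) or a non-targeting siRNA (siNTC). TAZ is the transcriptional co-activator encoded by WWTR1, which acts with TEAD transcription factors. The genes were taken by symbol, as those beginning with SEC and a digit, the coat genes COPA to COPZ, SAR1A and SAR1B, and the TMED, TRAPPC, KDELR and LMAN families. These symbols were chosen with earlier results of these data known. This gave 67 of the 18377 genes that had a probe set annotated with a single symbol. The symbols also took in genes of the ER membrane that act before vesicle transport (SEC61, SEC62, SEC63 and SEC11), the SEC14-like lipid transfer genes and SEC1P, a transcribed pseudogene.

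The study had 4 groups with 1 array each, namely A549 with siTAZ, A549 with siNTC, H441 with siTAZ and H441 with siNTC. All cells were lipid-transfected and harvested 48 h later. No group had a replicate, so a difference within a line has no test and the number of arrays limits the precision of every value. Whether siTAZ was a pool of siRNAs is not given in the sources used here. WWTR1 had log2 signals of 7.64 with siTAZ and 10.04 with siNTC in A549, and 7.47 with siTAZ and 9.61 with siNTC in H441. It fell in both lines, by 2.27 ± 0.12 on the log2 scale on average (SE; limma, adjusted p = 1.55e-11), and 19.0% of the siNTC signal was left in A549 and 22.7% in H441. Of the epithelial markers, 6 of 6 were above the median of the table on all 4 arrays. NKX2-1, which marks lung lineage, had signals of 5.01 and 5.02 in A549 with siTAZ and siNTC, against 9.57 and 9.14 in H441 with siTAZ and siNTC, so it was below the table median in A549. SFTPB and NAPSA, of the same lineage, were also below it on both A549 arrays and above it on both H441 arrays. SFTPC, also of that lineage, had 5.98 and 6.36 in A549, against 5.71 and 5.84 in H441, in the same order. Of the fibroblast markers, 1 of 4 (COL1A1) was above the median on all 4 arrays, and of 3 leukocyte and 3 endothelial markers none was. CD14, a leukocyte marker, had 7.94 and 7.22 in A549.

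Secreted and membrane proteins enter the ER through the SEC61 channel and leave it in vesicles coated by COPII. The GTPase SAR1 starts that coat, SEC23 and SEC24 form its inner layer and select cargo, and SEC13 and SEC31 form the outer cage. TRAPP complexes tether arriving vesicles and SNARE proteins such as SEC22B fuse them. Coatomer (COPI) returns material from the Golgi to the ER, the p24 proteins (TMED) and the lectins LMAN1 and LMAN2 are cargo receptors, and KDEL receptors retrieve escaped ER residents. Much of this machinery is known to be induced by the unfolded protein response, through XBP1 and ATF6.

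The bases before the start sites of 5 genes are shown as RefSeq gives them on GRCh38.p14, each 250 bases long, 5′ to 3′ on the gene's strand and ending at the base before the annotated start. SAR1A and SEC22C were called higher with siTAZ and hold none of the motifs searched, and SEC24A was called higher and holds the unfolded protein response element. KDELR3 and SEC62 were not called. They are shown because they hold that element, near their starts, and were at least 1.2-fold higher with siTAZ in A549. The other genes holding the element were less than 1.2-fold higher there and are not shown. Capitals mark TGACGTGG or its reverse complement CCACGTCA, the unfolded protein response element, and in SEC62 also CATTCC, the reverse complement of the TEAD motif GGAATG. SEC24A lies at chr5:134648535-134648784 (plus strand), KDELR3 at chr22:38467846-38468095 (plus), SEC62 at chr3:169966557-169966806 (plus), SAR1A at chr10:70170515-70170764 (minus) and the first listed start of SEC22C at chr3:42601079-42601328 (minus).
SEC24A: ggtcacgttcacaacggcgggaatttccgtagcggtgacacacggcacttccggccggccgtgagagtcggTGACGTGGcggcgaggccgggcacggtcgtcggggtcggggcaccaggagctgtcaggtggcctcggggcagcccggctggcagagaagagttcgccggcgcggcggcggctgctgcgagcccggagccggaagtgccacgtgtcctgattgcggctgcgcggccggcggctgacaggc
KDELR3: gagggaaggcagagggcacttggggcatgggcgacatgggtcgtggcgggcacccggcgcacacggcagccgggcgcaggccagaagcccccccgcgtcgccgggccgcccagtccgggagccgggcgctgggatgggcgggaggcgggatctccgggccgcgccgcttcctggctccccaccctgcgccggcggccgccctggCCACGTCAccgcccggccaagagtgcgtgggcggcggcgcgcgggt
SEC62: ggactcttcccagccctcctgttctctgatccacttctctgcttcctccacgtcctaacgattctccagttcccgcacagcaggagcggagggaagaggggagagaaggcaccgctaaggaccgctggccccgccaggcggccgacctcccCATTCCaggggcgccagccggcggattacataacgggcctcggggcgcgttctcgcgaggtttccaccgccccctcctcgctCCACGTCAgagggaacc
SAR1A: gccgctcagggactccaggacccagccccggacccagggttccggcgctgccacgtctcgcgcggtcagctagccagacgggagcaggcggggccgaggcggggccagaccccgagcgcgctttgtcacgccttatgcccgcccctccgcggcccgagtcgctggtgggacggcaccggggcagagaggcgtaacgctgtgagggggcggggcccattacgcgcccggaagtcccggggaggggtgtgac
SEC22C: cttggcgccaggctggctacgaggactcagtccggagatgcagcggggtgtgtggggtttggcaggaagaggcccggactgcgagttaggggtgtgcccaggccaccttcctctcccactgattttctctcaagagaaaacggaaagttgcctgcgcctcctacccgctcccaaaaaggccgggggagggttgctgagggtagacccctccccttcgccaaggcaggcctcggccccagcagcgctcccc

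The first question was how these genes stood after siTAZ in each line. In A549 most of them had higher signals with siTAZ, while in H441 they were spread around 0. A gene was counted in a line where the higher of its 2 arrays reached the median of the whole table, a log2 signal of 6.13, which 60 of the 67 genes did in A549 and 58 in H441. In A549, 45 of the 60 genes were higher with siTAZ and 15 lower, with a median difference of 0.12 on the log2 scale, whereas the median of all 11405 genes counted was 0.0051. At least 1.2-fold higher were 20 of the 60 (33.3%), against 11.0% of all genes. At least 1.2-fold lower was TMED4 alone (1.67%), against 8.66% of all genes. Past 1.5-fold were 3 genes, SEC22C, SEC24A and SAR1A, all higher, while 1.76% of all genes were that much higher and 1.07% that much lower.

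In H441, 33 of the 58 genes were higher with siTAZ and 25 lower, with a median of 0.01, beside 0.0048 for all 11911 genes. Only 4 genes were at least 1.2-fold higher (6.90%, against 9.70% of all genes), namely SEC22C, SAR1A, SEC1P and TMED8. TMED4, TRAPPC11 and TRAPPC8 were at least 1.2-fold lower (5.17%, against 10.7%). None passed 1.5-fold, which 0.479% of all genes did upward and 0.974% downward. The H441 direction counts depend on the scaling of the arrays. After each array was centred on its median, 16 of 57 were higher and the median was -0.07, with all genes at -0.08.

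Of the 57 genes counted in both lines, 27 had the higher signal with siTAZ in each line and 10 the lower signal in each. Another 15 were higher in A549 and lower in H441, and 5 the reverse. Across the whole array, these patterns held 3148, 3090, 2151 and 2072 of the 10576 genes counted in both lines, in that order. The A549 difference lay above the H441 difference in 49 of the 57 (85.96%), beside 52.9% of the 10576 genes of the whole array counted in both lines. The exceptions were SEC11A, SEC11C, TRAPPC12, TRAPPC14, TRAPPC2L, TRAPPC5, SEC1P and TMED1. With 1 array per group this difference between the lines was not tested. Genes within the interquartile range of the ER-Golgi genes' signals were also set beside them, a choice made after the values were seen. In that range, 11 of 30 ER-Golgi genes (36.7%) were at least 1.2-fold higher in A549, beside 11.1% of 4519 genes, and 1 of 28 (3.57%) in H441, beside 6.13% of 4293.

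**Figure D1:**
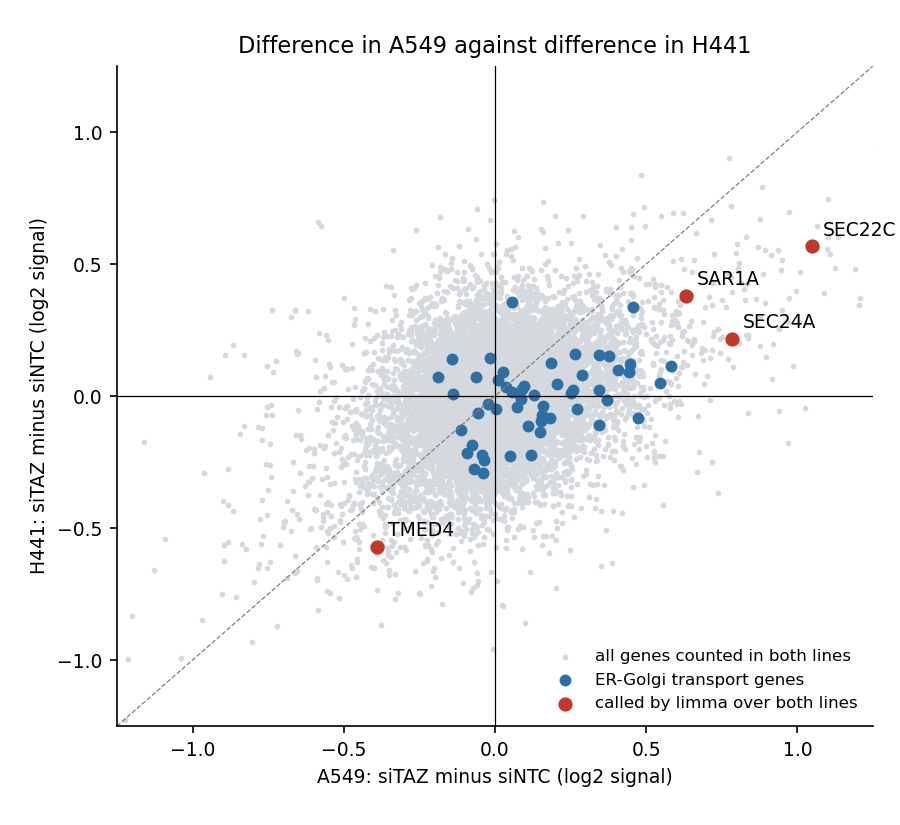
Difference of log2 signals, siTAZ minus siNTC, of each ER-Golgi gene in A549 (horizontal) and in H441 (vertical), with all genes counted in both lines in grey behind, those beyond the axes left out, and the dashed line at equal differences. Most ER-Golgi points lie below the dashed line, with the larger difference in A549, 49 of the 57 genes counted in both lines.

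Over both lines, 3 of the 61 genes tested rose (4.92%) and 1 fell (1.64%), while 57 were not called. Among all 12740 genes tested, 1.19% rose and 1.29% fell. The test was limma with the cell line as a term, which left 1 residual degree of freedom, set by how unlike the 2 siTAZ responses were. Limma also drew each gene's variance towards that of all genes tested, with 22.3 prior degrees of freedom and a prior SD of 0.119. The SEs and p-values, also those of WWTR1 and those between the lines, therefore rest mostly on the spread of other genes and not on replicates. The p-values were adjusted by Benjamini-Hochberg over all genes tested. Unadjusted p-values under 0.05 were found for 13 of the 61 genes, 12 of them higher with siTAZ. Among all 12740 genes tested they were found for 1688, of which 859 were higher and 829 lower. Of the 67 genes, 6 were too dim for the test (SEC16B, SEC14L3, SEC14L5, TRAPPC3L, LMAN1L and TMED6), each below 6.13 on all 4 arrays.

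SEC22C, a relative of the ER-Golgi SNARE SEC22B, had log2 signals of 7.998 with siTAZ and 6.95 with siNTC in A549, and of 8.38 with siTAZ and 7.82 with siNTC in H441. Both siTAZ arrays were above both siNTC arrays. It rose over both lines, being 2.07-fold higher in A549 and 1.48-fold higher in H441, by 0.81 ± 0.13 on average (SE; limma, adjusted p = 0.00058). Only 0.281% of the genes counted were as high in A549 and 0.571% in H441.

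SAR1A, the GTPase that starts the COPII coat, had signals of 10.05 with siTAZ and 9.42 with siNTC in A549, and of 9.81 with siTAZ and 9.43 with siNTC in H441. As deposited, the siNTC arrays of the lines were nearly alike and both siTAZ arrays lay above them. That comparison across the lines depends on the scaling. A549 minus H441 was 0.11 as deposited, 0.50 after quantile normalization and 0.51 after cyclic loess. SAR1A rose over both lines, 1.55-fold higher in A549 and 1.30-fold in H441, by 0.51 ± 0.12 on average (SE; limma, adjusted p = 0.020). Its paralogue SAR1B had 9.72 with siTAZ and 9.45 with siNTC in A549, and 9.98 with siTAZ and 10.03 with siNTC in H441, and was not called.

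SEC24A, a cargo-binding subunit of the inner COPII coat, had signals of 8.49 with siTAZ and 7.70 with siNTC in A549, against a smaller difference of 9.30 with siTAZ and 9.08 with siNTC in H441. The siTAZ and siNTC signals overlapped between the lines, and each siTAZ array was above its own line's siNTC array. The gene rose by 0.50 ± 0.13 on average (SE; limma, adjusted p = 0.039), and was 1.72-fold higher in A549 and 1.16-fold in H441. Of the genes counted, 0.772% were as high in A549 and 14.3% in H441.

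TMED4, a p24 cargo receptor of the early secretory pathway, was the gene that fell. Its signals were 9.16 with siTAZ and 9.55 with siNTC in A549, and 9.52 with siTAZ and 10.09 with siNTC in H441. Both siTAZ arrays were below both siNTC arrays. It fell by 0.48 ± 0.12 on average (SE; limma, adjusted p = 0.027). Of the genes counted, 3.64% were as low in A549 and 1.09% in H441. Each of the 4 calls was lost under at least 1 other setting: after cyclic loess the adjusted p-values ran from 0.066 for SEC22C to 0.19 for SEC24A, and with the line left out of the model each was 1, as it also was for WWTR1 there. Over all the alternatives, the adjusted p ran from 5.1e-08 to 1 for SEC22C, 0.00025 to 1 for SAR1A, 0.0014 to 1 for SEC24A and 0.00070 to 1 for TMED4.

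**Figure D2:**
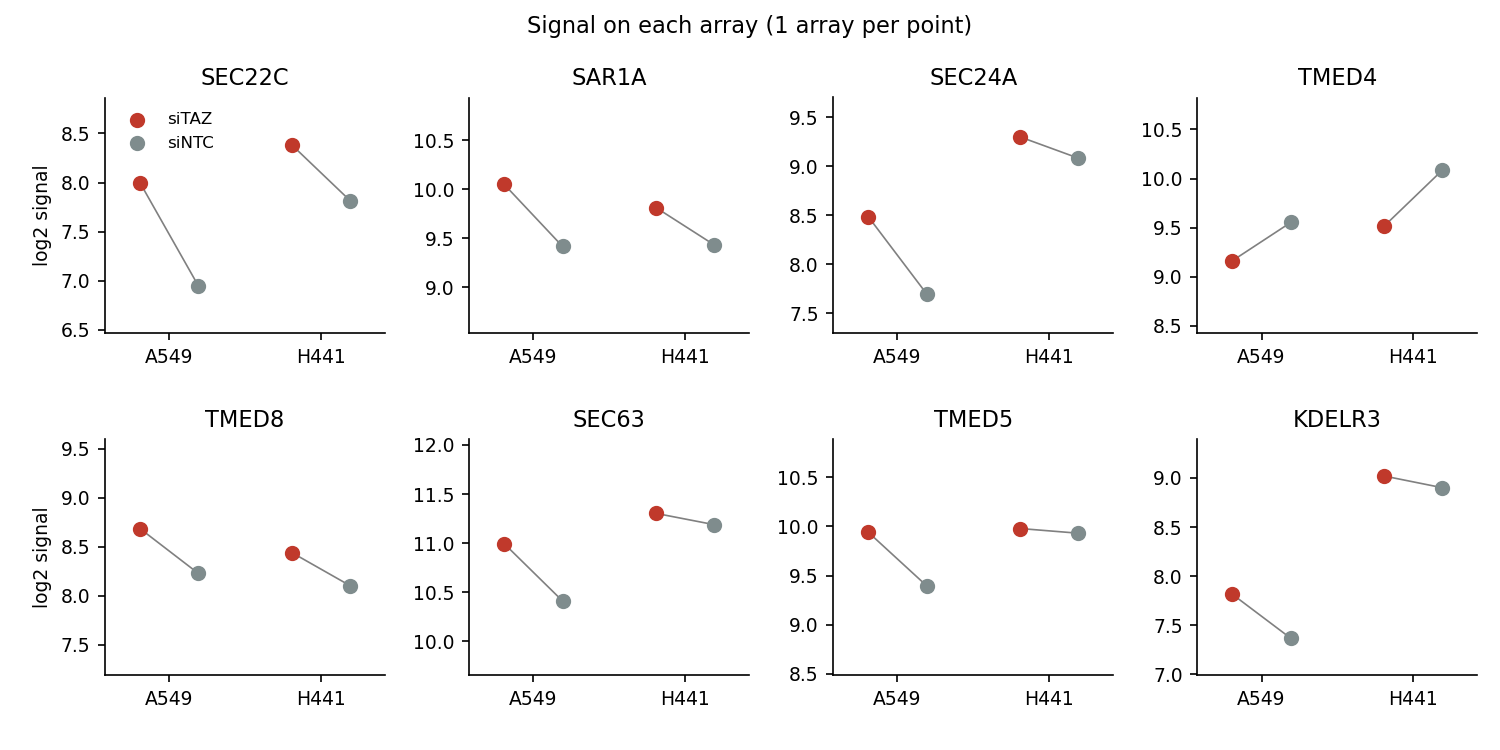
Log2 signals of named ER-Golgi genes on the 4 arrays, with the siTAZ array left of the siNTC array of the same line. SEC22C, SAR1A and SEC24A are higher and TMED4 lower with siTAZ in both lines.

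The COPII genes were higher with siTAZ in A549 in 10 of 12 counted, with a median of 0.13 and 4 at least 1.2-fold higher, and in 6 of 13 in H441, with a median of -0.01. Besides SAR1A and SEC24A, the larger A549 differences were those of SEC24D, another cargo-binding subunit, and SAR1B. SEC24D had 8.14 with siTAZ and 7.80 with siNTC in A549, and 9.87 with siTAZ and 9.72 with siNTC in H441, a mean difference of 0.25 ± 0.12 (SE; limma, adjusted p = 0.36). SEC24B and SEC24C had differences of 0.11 and -0.04 in A549 and of -0.11 and -0.22 in H441, so the 4 SEC24 genes did not share a direction. The other inner-coat genes SEC23A and SEC23B had differences of 0.07 and 0.16 in A549 and -0.04 and -0.07 in H441, and SEC23IP, which binds SEC23, had 0.21 and 0.05. For the outer cage, the differences were 0.05 in A549 and 0.01 in H441 for SEC13, -0.04 and -0.24 for SEC31A and 0.04 and 0.13 for SEC31B. The scaffold SEC16A of ER exit sites had differences of 0.09 and -0.01, and SEC16B was dim, at 5.60 with siTAZ and 5.48 with siNTC in A549, and 5.80 with siTAZ and 5.95 with siNTC in H441.

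The COPI coat genes were higher with siTAZ in 6 of 7 in A549, with a median of 0.15, and in 2 of 6 in H441, with a median of -0.04. None was called. The largest difference was that of COPZ2, a zeta subunit, which had 7.69 with siTAZ and 7.30 with siNTC in A549, and 5.96 with siTAZ and 5.81 with siNTC in H441, where it was below the table median (mean 0.27 ± 0.12, SE; limma, adjusted p = 0.31). The other zeta subunit, COPZ1, was bright and nearly level, with differences of -0.02 and -0.03. COPA, COPB2 and COPG1 had differences of 0.16, 0.13 and 0.25 in A549 and of -0.04, 0.0040 and 0.01 in H441. COPB1 had 0.15 in A549 and -0.14 in H441, and COPE had 0.05 in A549 and -0.23 in H441. A probe set shared by COPG2 and TSGA13, not counted here, had 6.79 with siTAZ and 6.90 with siNTC in A549, and 7.24 with siTAZ and 7.22 with siNTC in H441.

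**Figure D3:**
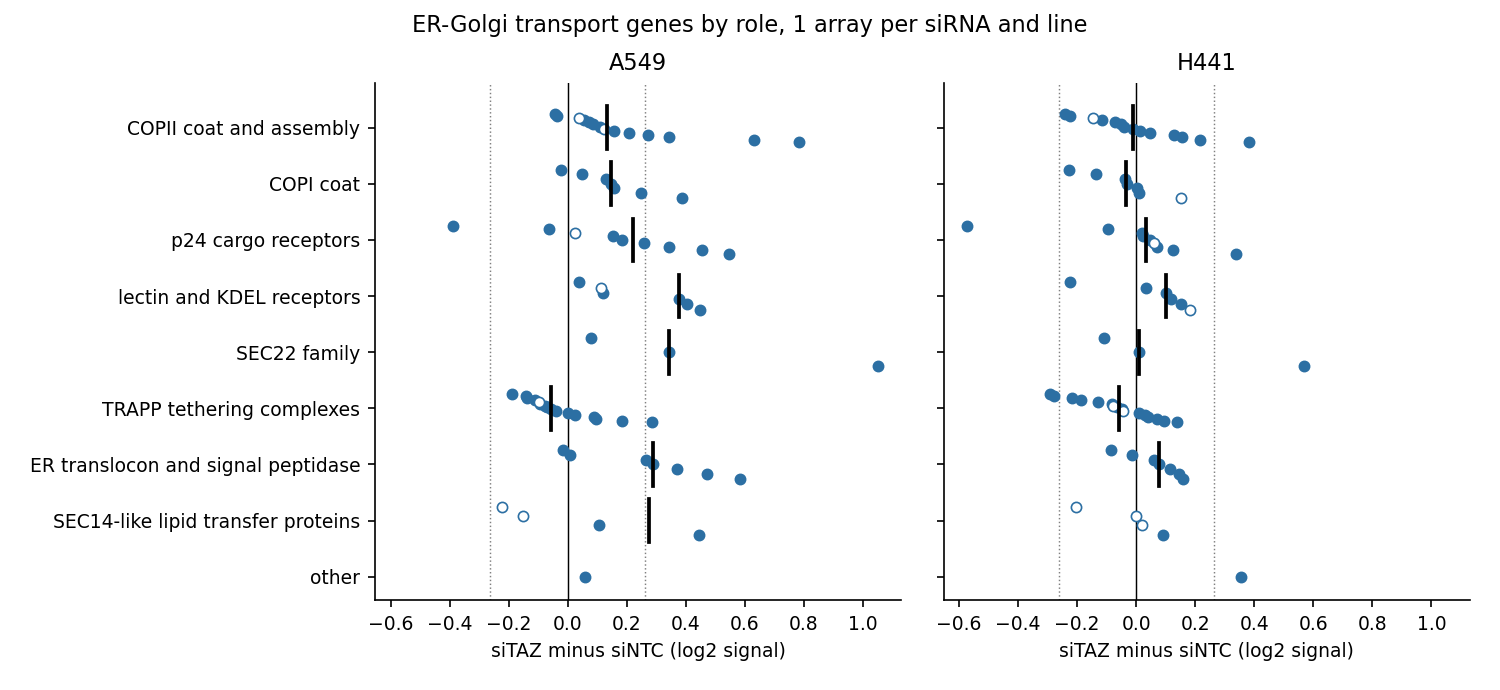
Differences in log2 signal, siTAZ minus siNTC, by role of the genes in each line. Filled points were counted, open points were below 6.13 on both arrays, the black bar is the median of the counted genes and dotted lines mark 1.2-fold.

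Among the TMED genes, grouped by symbol alone as p24 cargo receptors, 6 of 8 were higher in A549 (median 0.22) and 6 of 8 in H441 (median 0.03). TMED5, of the gamma subfamily, had 9.94 with siTAZ and 9.40 with siNTC in A549, against 9.98 with siTAZ and 9.93 with siNTC in H441, and was not called (adjusted p = 0.29, limma). TMED8 had 8.68 with siTAZ and 8.23 with siNTC in A549, and 8.44 with siTAZ and 8.10 with siNTC in H441, and its limma adjusted p was 0.078. With SEC22C and SAR1A, it was 1 of the 3 genes, of 57 counted in both lines, at least 1.2-fold higher in both. Of all 10576 genes counted in both lines, 270 were. TMED9 had differences of 0.34 and 0.02, TMED2 of 0.26 and 0.02, TMED3 of 0.18 and 0.13, TMED10 of 0.15 and -0.10 and TMED1 of -0.06 and 0.07 in A549 and H441. A probe set shared by TMED7 and TICAM2 had 8.54 with siTAZ and 8.22 with siNTC in A549, and 9.23 with both siRNAs in H441.

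The lectin and KDEL receptors were higher with siTAZ in 5 of 5 in A549, with a median of 0.38, and in 4 of 5 in H441, with a median of 0.10. None was called. KDELR3, which returns ER residents, had 7.82 with siTAZ and 7.37 with siNTC in A549, and 9.02 with siTAZ and 8.90 with siNTC in H441 (adjusted p = 0.29, limma). LMAN2, a lectin of the early secretory pathway, had 11.03 with siTAZ and 10.66 with siNTC in A549, and 10.78 with siTAZ and 10.63 with siNTC in H441 (adjusted p = 0.32). Its relative LMAN2L had 9.37 with siTAZ and 8.96 with siNTC in A549, and 9.01 with siTAZ and 8.91 with siNTC in H441 (adjusted p = 0.37). LMAN1, the cargo receptor for blood clotting factors, had 10.69 with siTAZ and 10.57 with siNTC in A549, but 11.38 with siTAZ and 11.61 with siNTC in H441. KDELR1 had differences of 0.04 and 0.03, and KDELR2 was not analysed here.

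Genes of ER entry were higher in A549 in 6 of 7, with 5 at least 1.2-fold higher and a median of 0.29, and in 5 of 7 in H441, with a median of 0.08. None was called. SEC63, which couples the channel to the chaperone BiP, had 10.99 with siTAZ and 10.41 with siNTC in A549, against 11.30 with siTAZ and 11.19 with siNTC in H441 (adjusted p = 0.17, limma). Its partner SEC62 had 8.88 with siTAZ and 8.51 with siNTC in A549, and 9.14 with siTAZ and 9.16 with siNTC in H441. The SEC61 channel subunits SEC61A1, SEC61A2 and SEC61B had differences of 0.29, 0.47 and 0.27 in A549 and 0.08, -0.08 and 0.16 in H441. SEC11A and SEC11C, catalytic subunits of signal peptidase, had differences of -0.02 and 0.0091 in A549 and of 0.14 and 0.06 in H441.

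In the SEC22 family, SEC22B had 9.52 with siTAZ and 9.17 with siNTC in A549, against 10.28 with siTAZ and 10.39 with siNTC in H441, and SEC22A had differences of 0.08 and 0.0078. SEC14L1, a SEC14-like gene, had 7.92 with siTAZ and 7.47 with siNTC in A549, and 8.61 with siTAZ and 8.51 with siNTC in H441 (adjusted p = 0.33, limma). SEC14L4 had a difference of 0.11 in A549. In H441 it was below 6.13 with either siRNA, and SEC14L5 and SEC14L3 were below it on all arrays. SEC1P had 6.51 with siTAZ and 6.45 with siNTC in A549, and 6.57 with siTAZ and 6.21 with siNTC in H441.

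The TRAPP genes did not share the upward differences of A549. Of 15 counted in A549, 6 were higher with siTAZ and the median was -0.06, with a range of -0.19 to 0.29; of 14 in H441, 6 were higher and the median was also -0.06, with a range of -0.29 to 0.14. None of the 15 tested was called. In A549 the lowest differences were those of TRAPPC2L (-0.19), TRAPPC5 (-0.14), TRAPPC14 (-0.14) and TRAPPC6B (-0.11), and the highest that of TRAPPC2 (0.29), a gene mutated in a skeletal dysplasia, whose signals of 6.25 with siTAZ and 5.96 with siNTC lay near the table median. In H441, TRAPPC11 had 8.94 with siTAZ and 9.23 with siNTC, and TRAPPC8 had 7.75 with siTAZ and 8.02 with siNTC, both of the TRAPPIII complex, which also acts in autophagy. TRAPPC13 had differences of -0.09 and -0.22, and its second probe set was below 6.13 on all 4 arrays and was not used. Outside the TRAPP group, a split made after the values were seen, 39 of 45 genes were higher with siTAZ in A549 (median 0.18) and 27 of 44 in H441 (median 0.02).

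**Figure D4:**
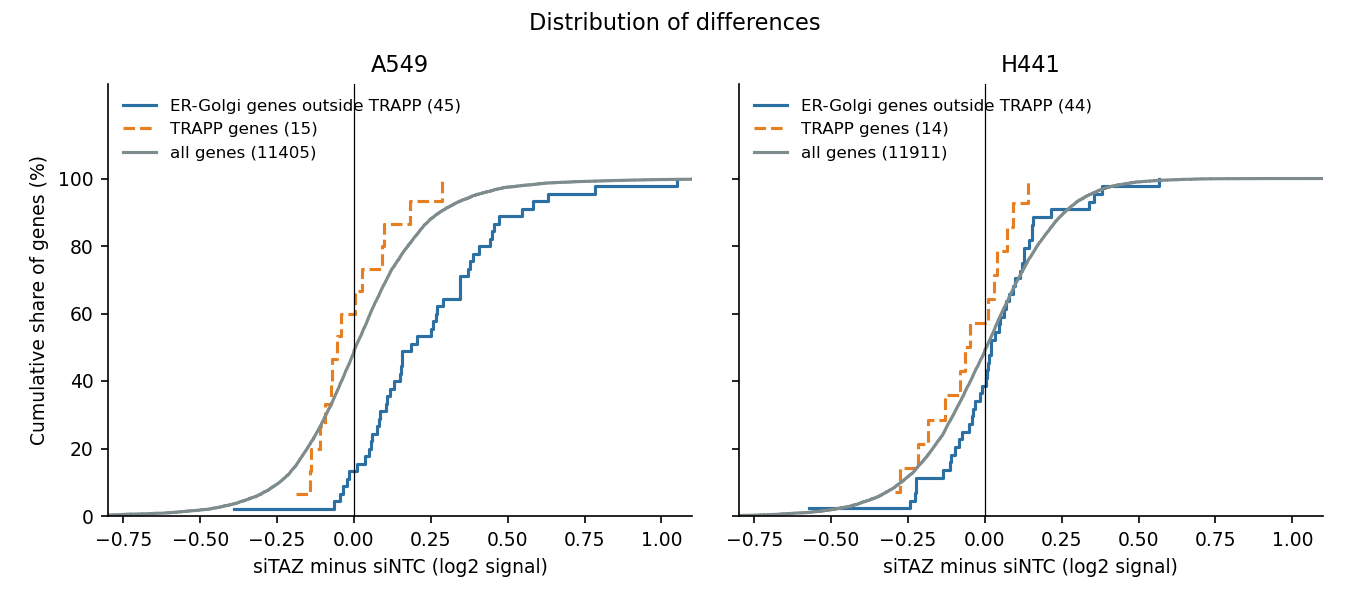
Cumulative share of genes by difference in log2 signal, siTAZ minus siNTC, for the TRAPP genes, the other ER-Golgi genes and all genes counted in each line. In A549 the curve of the other ER-Golgi genes lies to the right of the rest, and in H441 the curves lie close together.

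Transport genes that the symbols do not reach were set beside these. Of 45 such genes with a probe set (ARFs, RABs, SNAREs, tethers and cargo receptors), 26 were higher with siTAZ in A549 (median 0.02) and 22 in H441 (median -0.0057), and none rose over both lines, with none at an unadjusted p under 0.05 either. MIA3 (TANGO1), which exports procollagen from the ER, was the 1 that fell, with 7.70 with siTAZ and 8.17 with siNTC in A549, and 7.99 with siTAZ and 8.64 with siNTC in H441, by 0.56 ± 0.12 on average (SE; limma, adjusted p = 0.0082, and 0.00025 to 1 over the alternatives). CNIH1, a cargo receptor, had 10.20 with siTAZ and 9.76 with siNTC in A549, against 10.08 with siTAZ and 10.02 with siNTC in H441, and the ER SNARE STX18 had 8.19 with siTAZ and 8.25 with siNTC in A549, against 8.55 with siTAZ and 8.98 with siNTC in H441. The 7 COG genes tested, which tether vesicles within the Golgi, had medians of 0.02 and -0.08, and none was called by limma, with COG5 alone at an unadjusted p under 0.05 (differences of -0.36 and -0.31, adjusted p = 0.15), while COG6 and COG3 had mean differences of -0.14 and 0.08. The regulator XBP1 had 10.63 with siTAZ and 10.18 with siNTC in A549, against 10.98 with siTAZ and 10.93 with siNTC in H441 (adjusted p = 0.38). For ATF6 the signals were 9.47 (siTAZ) and 9.36 (siNTC) in A549, then 10.05 (siTAZ) and 10.22 (siNTC) in H441. It was not called (adjusted p = 0.95, limma). Among all listed regulators, siTAZ gave the higher signal for 3 of 4 counted in A549 (median 0.16), but for 1 of 5 in H441 (median -0.08). CREB3 and CREB3L2, transcription factors of the Golgi and ER membrane, had differences of 0.21 and -0.20 in A549 and of -0.08 and -0.15 in H441.

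The motifs described above were searched as exact letters on both strands in the 300-base RefSeq windows that run from 250 bases before to 50 after each start. A window was found for 59 of the 67 genes, and none for TMED4, SEC24D, TMED9, SEC1P, TRAPPC8, TRAPPC9, TRAPPC14 and LMAN1L. TGACGTGG lay in 9 of the 59 (15.3%), against 1.21% of the 10200 tested genes with a window and 0.729% of all 35116 windows: COPA, COPB1, COPB2, KDELR3, SEC16A, SEC16B, SEC23A, SEC24A and SEC62. In the sequences shown it begins 179 bases before the start in SEC24A, 46 in KDELR3 and 17 in SEC62. Of the 8 carriers counted in A549, all 8 were higher with siTAZ, with a median of 0.15, and of the 45 counted genes without it 33 were higher, with a median of 0.11. In H441, 3 of 8 carriers and 26 of 43 others were higher, with medians of -0.01 for carriers and 0.03 for the others. At least 1.2-fold higher were 3 of the 8 carriers and 15 of the 45 others in A549, and 0 and 3 in H441. The TEAD motif GGAATG lay in 5 of the 59 (8.47%), against 14.8% of the tested genes, and the ER stress element, CCAAT then 9 bases then CCACG, in none, against 0.157%. A match describes the letters only.

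The lines themselves differed in these genes. As deposited, 32 of the 61 tested were lower in A549 than in H441 (52.5%) and 9 higher (14.8%), near the 52.8% and 19.0% of all genes tested, and the median of all genes was -0.31. After quantile normalization, 25 genes were higher and 17 lower, against 32.1% and 32.7% of all genes, so the overall split between the lines depends on the scaling. Called in the same direction as deposited, after quantile normalization and after cyclic loess were 9 higher and 17 lower. The same count was not made over all genes, so whether these counts are unusual cannot be told. After cyclic loess alone, 32.2% of all genes tested were called higher in A549 and 31.4% lower.

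TRAPPC6B, a TRAPP core subunit, averaged 7.55 in A549 and 10.03 in H441 (difference -2.49 ± 0.12, SE; limma, adjusted p = 2.6e-15). SEC24D averaged 7.97 in A549 and 9.80 in H441 (-1.82), KDELR3 averaged 7.59 and 8.96 (-1.37) and SEC31A averaged 10.02 and 11.34 (-1.32). SEC61A1 and COPG1 were lower in A549 by 1.21 and 1.12 on the log2 scale. SEC61A2, by contrast, averaged 8.08 in A549 and 6.20 in H441 (1.87), SEC14L4 averaged 7.53 and 5.93 (1.61) and COPZ2 averaged 7.49 and 5.89 (1.61). TRAPPC1, SEC16A and KDELR1 were higher in A549 by 0.92, 0.67 and 0.57. In bulk RNA, fewer cells expressing a gene and less RNA per cell cannot be told apart, and signals of different probe sets were not set against each other.

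**Figure D5:**
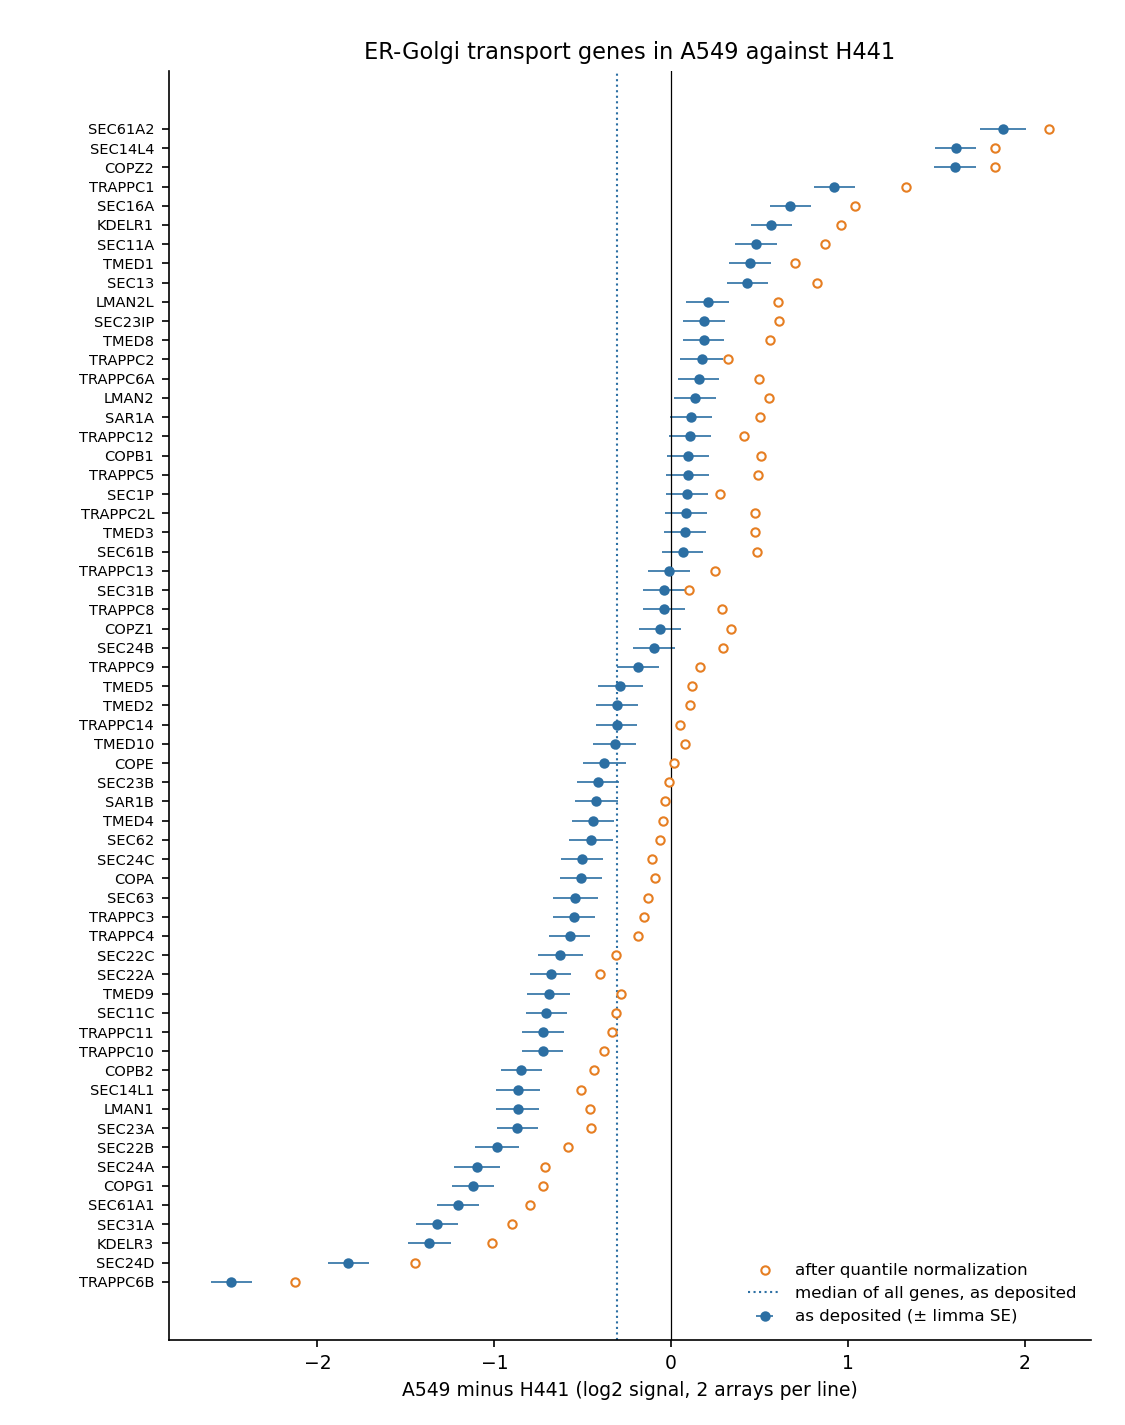
Difference between the lines, A549 minus H441, in log2 signal for the 61 ER-Golgi genes tested, as deposited (filled, with the limma SE) and after quantile normalization (open), with the median of all genes as deposited dotted. TRAPPC6B is lowest and SEC61A2 highest in A549 relative to H441 under both.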

How the data were processed

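Total RNA of A549 and H441 cells transfected with siTAZ or siNTC was hybridised to Affymetrix whole-transcript arrays, 1 per group. The authors summarised each probe set with RMA (per the submitters' processing notes) and deposited its log2 signal. Neither the RMA version nor the siRNA sequences are stated in these sources. RMA compresses differences of dim probe sets.

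A gene had its brightest probe set with a single symbol in the platform annotation (19310 of 28869 probe sets had 1 symbol, 1752 several and 7807 none). Genes whose highest value reached the table median of 6.13 were tested with limma 3.58.1 in R 4.3.3, with siRNA and cell line as terms and Benjamini-Hochberg adjustment over 12740 genes, called at an adjusted p under 0.05. Alternatives were median centring, quantile normalization, cyclic loess, no filter, a stricter filter, the mean of probe sets, an intensity trend and leaving out the second factor. The code was tested on simulated data.

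Genes were named if called, if among the 15 with the largest mean difference, the 5 largest per direction in a line or the 6 largest per direction between the lines, or if they were COPI or COPII genes; listed genes outside the symbols were named if called or among the 3 largest. Others are given to complete their role group. The members and lists were chosen with earlier results of these data known. Promoter sequences are from RefSeq, GRCh38.p14.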

Additional observations from a re-analysis of the deposited data

Results flagged for a closer look

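SEC22B, LMAN1, TRAPPC5, COPB1 and SEC24B had differences of opposite sign in the 2 lines, each at least 0.1 on the log2 scale, and the difference was not tested, since each group had 1 array. For SEC22B the difference, siTAZ minus siNTC, was 0.34 in A549 and -0.11 in H441, a gap of 0.45 (A549 minus H441), and for LMAN1 it was 0.12 in A549 and -0.22 in H441, a gap of 0.34. For TRAPPC5 it was -0.14 in A549 and 0.14 in H441, a gap of -0.28. For COPB1 it was 0.15 in A549 and -0.14 in H441, a gap of 0.28. For SEC24B it was 0.11 in A549 and -0.11 in H441, a gap of 0.22.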

How the results depend on the processing

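Over both lines, the count of genes called higher with siTAZ, 3 as reported, was 0 after cyclic loess and with the second factor left out (where no gene was called, WWTR1 included), 1 without the filter and 5 with an intensity trend, which added TMED8 and SEC63 (adjusted p of 0.022 and 0.0077). The count called lower, 1 as reported, was 0 after quantile normalization, after cyclic loess, without the filter and with the second factor left out. Where both counts were 0, 13 members had an unadjusted p under 0.05 after cyclic loess and 0 with the second factor left out, beside 1493 and 11 of all genes. Of all genes tested, the share called higher, 1.19% as reported, was 0.071% after cyclic loess, 0.256% without the filter and 2.18% with an intensity trend. The share of all genes called lower, 1.29% as reported, was 0.529% after quantile normalization, 0.087% after cyclic loess and 0.245% without the filter. Between the lines, the count higher in A549, 9 as reported, was 15 after median centring, 25 after quantile normalization and 26 after cyclic loess, and the count lower, 32 as reported, was 17 after quantile normalization and 17 after cyclic loess. Over all genes the higher and lower shares moved to 24.5% and 41.4% after median centring and to 32.2% and 31.4% after cyclic loess. The signs of 5 of the genes called between the lines turned: TMED5 was at 0.12 after quantile normalization and 0.11 after cyclic loess, TRAPPC14 at 0.0497 and 0.0502, COPE at 0.0142 and 0.0149, TMED10 at 0.08 and 0.06, and TMED2 at 0.11 and 0.05, against -0.29, -0.31, -0.38, -0.32 and -0.31 as deposited, and none was called after turning. At 1.5-fold, A549 had 3 members higher and 0 lower, and H441 0 and 0. At least 1.2-fold lower in H441 were 9 members after median centring and 1 after quantile normalization, against 3. Of all genes counted, 19.1% were that much lower after median centring and 9.52% after quantile normalization, against 10.7%. The cause was not tested. The labels carry no replicate numbers, and the line is the block of the reported test. Leaving out a line leaves no residual degrees of freedom, so the values of single lines stand in its place.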
